A study of Mus musculus with 5 samples.

Results

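The 10 genes *Axin2*, *Lef1*, *Apcdd1*, *Lgr5*, *Nkd1*, *Notum*, *Sp5*, *Znrf3*, *Rnf43* and *Tcf7* are reported transcriptional targets of Wnt/beta-catenin signalling, and they were taken by symbol from the 32286 features counted in 5 mouse synovial sarcomas (SyS). All 10 were counted and all 10 passed the low-count filter in every comparison, so none was left out. The tumours arose in *hSS2* mice, which carry the human *SS18::SSX2* fusion at *Rosa26*. The fusion was switched on by TATCre, a cell-permeant Cre recombinase protein injected into the hindlimb of pups, and tumours were taken at morbidity, dissociated and profiled by droplet-based single-cell RNA-seq. The labels give the histology of adjacent tissue, with 2 biphasic tumours (BP, with glandular epithelial and spindle cells), 1 monophasic tumour (MP, spindle cells), 1 mixed MP+BP tumour and 1 mixed poorly differentiated and monophasic tumour (PD+MP). Every tumour carried the fusion and had received TATCre, no tissue without the fusion was among the samples analysed here, and Cre protein injected this way is not restricted to a cell type. The BP labels share a leading number whose meaning was not stated, so the 2 BP tumours may not be from separate animals, and p-values measure only the spread between these samples.

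In canonical Wnt signalling, Wnt ligands bind Frizzled and LRP receptors and stop a cytoplasmic complex built on AXIN and APC from marking beta-catenin for destruction. Beta-catenin then enters the nucleus and binds TCF/LEF proteins at target genes. Many targets are parts of the pathway itself, so their RNA is commonly read as a record of its activity. *Axin2* (scaffold of the destruction complex), *Nkd1* (an inhibitor of Dishevelled), *Notum* (an extracellular enzyme that removes the lipid of Wnt ligands), *Apcdd1* (a membrane protein that binds Wnt and LRP), and *Znrf3* and *Rnf43* (ubiquitin ligases that clear Frizzled from the surface) act as negative feedback. *Lgr5* encodes a receptor for R-spondins, which hold ZNRF3 and RNF43 in check, *Lef1* and *Tcf7* encode TCF/LEF transcription factors, and *Sp5* encodes a zinc-finger repressor. *Lef1* and *Tcf7* are also classical T-cell genes.

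The genes lie on separate loci of GRCm38 (GENCODE M21 annotation). *Axin2* spans chr11:108920349-108950783 and *Lef1* chr3:131110471-131224356, both on the plus strand, and *Lgr5* spans chr10:115450311-115587780 on the minus strand. *Nkd1* lies at chr8:88521354-88594884 and *Sp5* at chr2:70474923-70477729, both on the plus strand. *Notum* (chr11:120653788-120661175), *Znrf3* (chr11:5276324-5444847) and *Tcf7* (chr11:52252371-52283014) lie on the minus strand of the chromosome that also holds *Axin2* and *Rnf43* (chr11:87662722-87735539, plus strand). All 10 are annotated as protein-coding. A TCF/LEF recognition word, CTTTGAT, was searched on both strands in the 250 bases before annotated transcript starts from RefSeq (GRCm38.p6). Of 9 members looked up, 6 had entries, with 11 windows in all, and *Lgr5*, *Notum* and *Znrf3* had none. *Sp5* alone held the word. It was found in 3.21% of 32851 windows genome-wide. The *Sp5* window, chr2:70474673-70474922 on the plus strand, is shown because it is the single member promoter with a match, with the word in capitals 104 bases before the start:

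Sp5: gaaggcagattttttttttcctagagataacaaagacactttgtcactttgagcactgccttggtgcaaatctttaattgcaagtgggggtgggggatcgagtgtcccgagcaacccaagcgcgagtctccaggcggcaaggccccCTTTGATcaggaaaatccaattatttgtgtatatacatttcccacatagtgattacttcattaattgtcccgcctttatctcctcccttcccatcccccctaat

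The match is a description of letters and not of a bound site, and absence of the word elsewhere says only that it is not in those windows.

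Cells were kept at 750 or more detected genes and at most 25% mitochondrial UMIs (unique molecular identifiers, which count each captured RNA molecule 1 time), leaving 39559 of 51670 called cells after doublets were removed. Tumours held 89996321 to 118649103 UMIs each. Clustering without any of the 10 genes gave 30 clusters, of which 14 were SyS-like by 5 to 8 of 11 SyS markers, with 27006 cells (3658 to 6847 per tumour). The named comparison classes were endothelial-like (2289 cells), pericyte-like (1233 cells), macrophage-like (3881 cells) and T/NK-like (297 cells). Each pair of libraries shared 9 to 20 cell barcodes. Levels below are CPM, the UMIs of a gene summed over the cells of 1 class in 1 tumour and scaled to a common total, and a UMI is counted from the 3′ end of the transcript, so no level is compared between genes. In such sums, fewer expressing cells and less RNA per cell cannot be told apart.

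SyS-like cells of every tumour held UMIs of all 10 genes. The genes did not follow 1 order of tumours. Values are given in the order BP replicate 1, BP replicate 2, MP, MP+BP and PD+MP. *Axin2* was at 37.5, 29.6, 14.9, 40.6 and 17.6 CPM (28.0 ± 11.5, SD, n = 5). The 3 tumours with BP in the label thus lay above the other 2. *Lef1* was at 242, 183, 104, 352 and 26.0 CPM, with the lowest level in PD+MP and the highest in MP+BP. *Apcdd1* was at 969, 968, 61.2, 156 and 58.0 CPM. Its BP tumours lay close together and far above the other 3. *Lgr5* was at 379.9, 432, 315, 449.9 and 245 CPM, with 364 ± 84.7 CPM (SD, n = 5).

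Of the other genes, *Nkd1* was at 37.0, 46.1, 9.17, 18.9 and 13.3 CPM, highest in both BP tumours. *Notum* was at 6.04, 5.39, 4.50, 9.37 and 0.472 CPM, so that PD+MP lay far below the rest. *Sp5* was at 23.0, 20.3, 20.01, 18.2 and 12.3 CPM. *Znrf3* was at 114, 72.1, 86.9, 80.5 and 76.7 CPM, which put BP replicate 1 above 4 tumours that lay close together. *Rnf43* was at 13.2, 10.8, 4.40, 9.78 and 12.6 CPM, lowest in MP. *Tcf7* was at 12.9, 11.5, 5.16, 7.25 and 7.50 CPM, also lowest in MP. The lowest of the 5 levels was in PD+MP for 5 genes (*Lef1*, *Apcdd1*, *Lgr5*, *Notum* and *Sp5*), in MP for 4 (*Axin2*, *Nkd1*, *Rnf43* and *Tcf7*) and in BP replicate 2 for *Znrf3*.

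**Figure D1:**
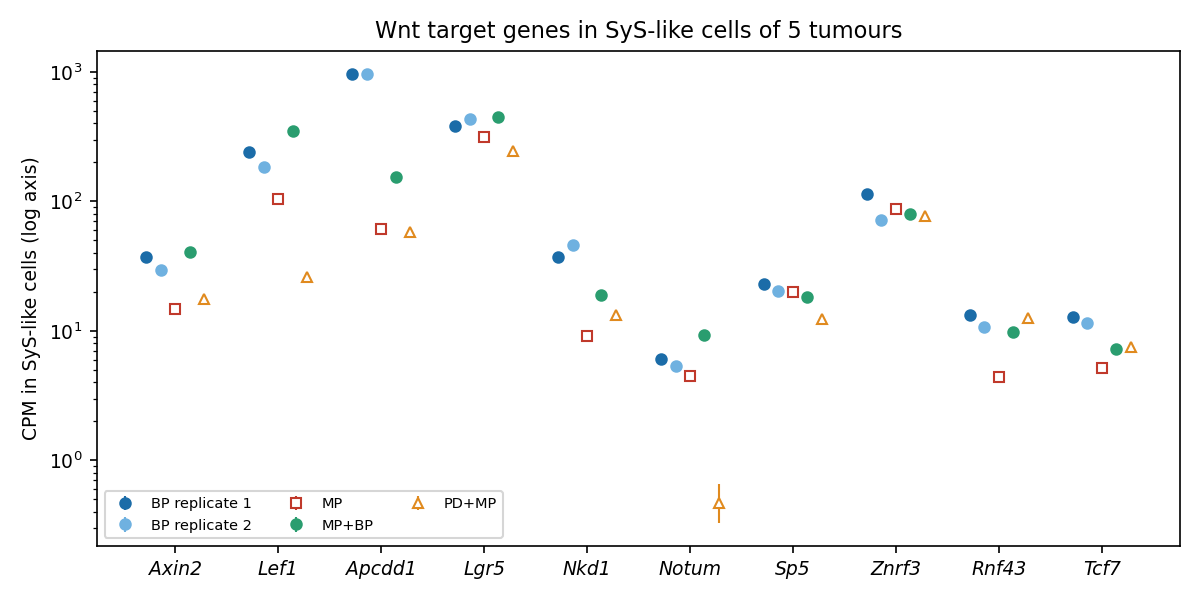
CPM of each gene (log axis) in the SyS-like cells of the 5 tumours, 1 symbol per tumour, filled for the BP-labelled tumours, with bars for the 95% counting interval where it is wider than the symbol. *Apcdd1* runs from 58.0 to 969 CPM, and *Sp5* stays between 12.3 and 23.0 CPM.

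Levels across classes set the SyS-like cells apart for some genes and not for others. Macrophage-like cells serve as a class in which these genes are not known to be typical, so that UMIs there can come from free RNA. After thinning each cell to 2000 UMIs, *Axin2* had a UMI in 5.53% of SyS-like cells (95% exact interval 5.26 to 5.82%) and in 0.297% of macrophage-like cells. The same shares were 37.8% and 4.11% for *Apcdd1*, 31.1% and 1.03% for *Lgr5*, and 23.2% and 0.756% for *Lef1*. Unthinned, *Axin2* had a UMI in 25.4% and 0.953% of cells, at median depths of 9808 and 5329 UMIs per cell. Thinning left out 592 SyS-like and 179 macrophage-like cells. *Znrf3* was the exception, with 13.1% of SyS-like and 8.81% of macrophage-like cells. Intervals here and below cover counting error only.

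*Lef1* was at 187, 239, 59.2, 144 and 199.6 CPM in endothelial-like cells, overlapping its SyS-like range, and it was at 497, 257, 931, 144 and 164 CPM in T/NK-like cells. *Tcf7* was higher in T/NK-like cells, at 171, 180, 134, 54.1 and 67.9 CPM, than in the SyS-like cells of all 5 tumours, with no overlap between the classes. *Znrf3* stood at 291, 244, 314, 246 and 204 CPM in T/NK-like cells, again above every SyS-like value. *Rnf43* had a median of 20.6 CPM there, on 23 UMIs in all, and 10.8 CPM in SyS-like cells. Its range in T/NK-like cells, 10.0 to 56.6 CPM, overlapped that of SyS-like cells. These differences from T/NK-like cells were not tested. *Axin2* in T/NK-like cells, at 45.2, 38.5, 25.7, 12.0 and 17.0 CPM, overlapped the SyS-like levels, but rested on only 22 UMIs in all. *Sp5* and *Nkd1* had no UMI in T/NK-like cells of any tumour, where 15.3 and 18.2 UMIs would have been counted at the SyS-like level of the same tumours. These expected UMIs were 5.08 times (*Sp5*) and 6.08 times (*Nkd1*) a floor of 3 counts over the class. By the counting interval, *Sp5* was at least 4.14-fold and *Nkd1* at least 4.94-fold lower there. Fibroblast-like cells reached 10 cells only in MP+BP and PD+MP, where *Lgr5* stood at 51.0 and 69.4 CPM, and the clusters left unnamed, most of whose cells were shallow and lay in clusters with SyS markers, had a median *Lgr5* of 255 CPM over the 5 tumours. For *Axin2* and *Lef1* the order of SyS-like, endothelial-like and T/NK-like cells was not separated beyond the spread between tumours.

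**Figure D2:**
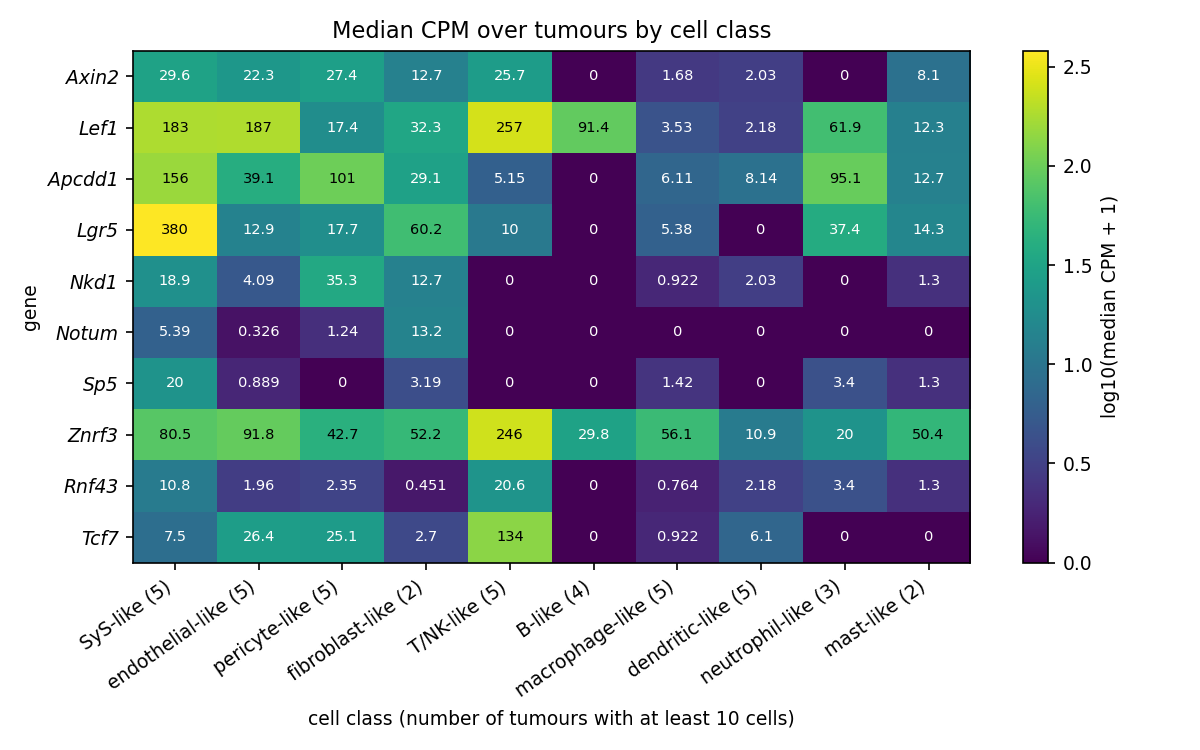
Median CPM over tumours of each gene in each cell class, drawn as log10(median CPM + 1), with the number of tumours that have at least 10 cells of the class under its name. *Lgr5* and *Sp5* have their highest median in SyS-like cells, at 379.9 and 20.01 CPM. *Lef1*, *Tcf7*, *Znrf3* and *Rnf43* have theirs in T/NK-like cells. *Notum* has its highest in fibroblast-like cells, on 5 UMIs in 2 tumours.

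Against endothelial-like cells, *Lgr5*, *Sp5*, *Notum*, *Nkd1*, *Apcdd1* and *Rnf43* were higher in SyS-like cells and *Tcf7* was lower (6 and 1 of the 10 genes). Of all genes that were no clustering feature, 30.9% were called higher and 18.4% lower in SyS-like cells. *Lgr5* was at 6.70 to 16.3 CPM in endothelial-like cells and 245 to 449.9 CPM in SyS-like cells, a log2 fold change of 4.71 ± 0.23 (SE, adjusted p = 1.32e-07, edgeR). *Sp5* (log2 fold change 4.04 ± 0.32, adjusted p = 2.78e-06) had 16 UMIs in the endothelial-like cells of all tumours, and *Notum* (3.64 ± 0.52, adjusted p = 0.000207) had 6. At the SyS-like level, 309 UMIs of *Sp5* and 89.0 of *Notum* would have been counted in those endothelial-like cells. The feedback genes *Nkd1* (2.38 ± 0.30, adjusted p = 8.78e-05), *Apcdd1* (2.26 ± 0.33, adjusted p = 0.000255) and *Rnf43* (2.08 ± 0.29, adjusted p = 0.000182) were each higher in 5 of 5 tumours. *Tcf7* (-1.79 ± 0.23, adjusted p = 9.42e-05) was lower in 5 of 5.

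*Axin2*, *Lef1* and *Znrf3* did not pass the test against endothelial-like cells. Endothelial-like *Axin2* was at 23.8, 26.8, 21.2, 22.3 and 14.7 CPM, where SyS-like cells ran from 14.9 to 40.6 CPM, and its log2 fold change was 0.07 ± 0.22 (adjusted p = 0.816, edgeR). *Lef1* gave -0.26 ± 0.46 (adjusted p = 0.664). PD+MP, where endothelial-like cells stood at 199.6 CPM and SyS-like cells at 26.0 CPM, was the tumour farthest from the others. *Znrf3* gave -0.24 ± 0.16 (adjusted p = 0.232). These values do not show that the levels were equal.

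Pericytes are the contractile cells around small vessels. *Sp5*, *Lgr5*, *Lef1*, *Notum*, *Rnf43* and *Znrf3* were higher in SyS-like cells, and *Nkd1* and *Tcf7* were lower (6 and 2 of 10, against 22.8% higher and 11.5% lower among all such genes). *Nkd1* was at 46.2, 59.0, 25.01, 28.6 and 35.3 CPM in pericyte-like cells, above the SyS-like level in each tumour (-1.01 ± 0.23, adjusted p = 0.00345, edgeR), and *Tcf7* gave -1.70 ± 0.26 (adjusted p = 0.000159). *Lgr5* (4.11 ± 0.20, adjusted p = 5.63e-09) and *Lef1* (2.94 ± 0.40, adjusted p = 6.47e-05) were higher in all 5 tumours. Only 1 UMI of *Sp5* was counted in pericyte-like cells of all 5 tumours, where 115 would have been counted at the SyS-like level, a ratio of 115 with a counting interval of 20.7 to 4556.

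Of the smaller differences from pericyte-like cells, *Rnf43* gave 1.69 ± 0.45 (adjusted p = 0.00961), *Notum* 1.71 ± 0.50 (adjusted p = 0.016) and *Znrf3* 0.57 ± 0.17 (adjusted p = 0.0163, edgeR). *Notum* rested on 8 UMIs in pericyte-like cells. It was not called without MP (1.45, adjusted p = 0.0923) or without MP+BP (1.49, adjusted p = 0.0712), nor was *Znrf3* (0.53, adjusted p = 0.0734, and 0.52, adjusted p = 0.0643), and *Rnf43* was not called without BP replicate 1 (1.52, adjusted p = 0.0517). With doublets kept, *Notum* (0.99, adjusted p = 0.0507) and *Rnf43* (0.83, adjusted p = 0.170) were not called. *Axin2* was at 39.1, 33.9, 27.2, 27.4 and 15.7 CPM in pericyte-like cells and did not pass (-0.38 ± 0.23, adjusted p = 0.222), nor did *Apcdd1* (0.91 ± 0.42, adjusted p = 0.106), which was called when MP (1.25, adjusted p = 0.0130) or PD+MP (1.25, adjusted p = 0.0280) was left out. Pericyte-like cells numbered 38 to 530 per tumour.

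Against macrophage-like cells, 9 of the 10 genes were higher and none was lower, against 37.2% higher and 22.4% lower of all such genes. *Lgr5* was higher by 5.31 ± 0.19 (log2, adjusted p = 3.14e-09, edgeR), *Lef1* by 4.61 ± 0.25 (adjusted p = 6.83e-08), *Nkd1* by 4.22 ± 0.27 (adjusted p = 2.36e-07) and *Apcdd1* by 4.20 ± 0.21 (adjusted p = 3.82e-08). *Axin2* was higher by 3.45 ± 0.28 (adjusted p = 1.42e-06), with 1.14 to 2.03 CPM in macrophage-like cells. *Notum*, *Sp5*, *Rnf43* and *Tcf7* were higher by 3.75, 3.43, 3.26 and 2.65. These 4 genes had only 6, 27, 17 and 22 UMIs over all macrophage-like cells. *Notum* was higher in 5 of 5 tumours, but its ranges overlapped, with SyS-like cells from 0.472 CPM and macrophage-like cells up to 0.768 CPM. *Znrf3* (0.11 ± 0.18, adjusted p = 0.605) was the remaining gene. Its macrophage-like level was 38.6 to 88.3% of the SyS-like level, while the median over tumours was 1.53% for *Lgr5*, 5.67% for *Axin2* and 10.5% for *Tcf7*. With library totals in place of TMM factors *Znrf3* was called higher (0.71, adjusted p = 0.00432), but that scaling moved the median of all genes from 0.24 to 0.83.

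**Figure D3:**
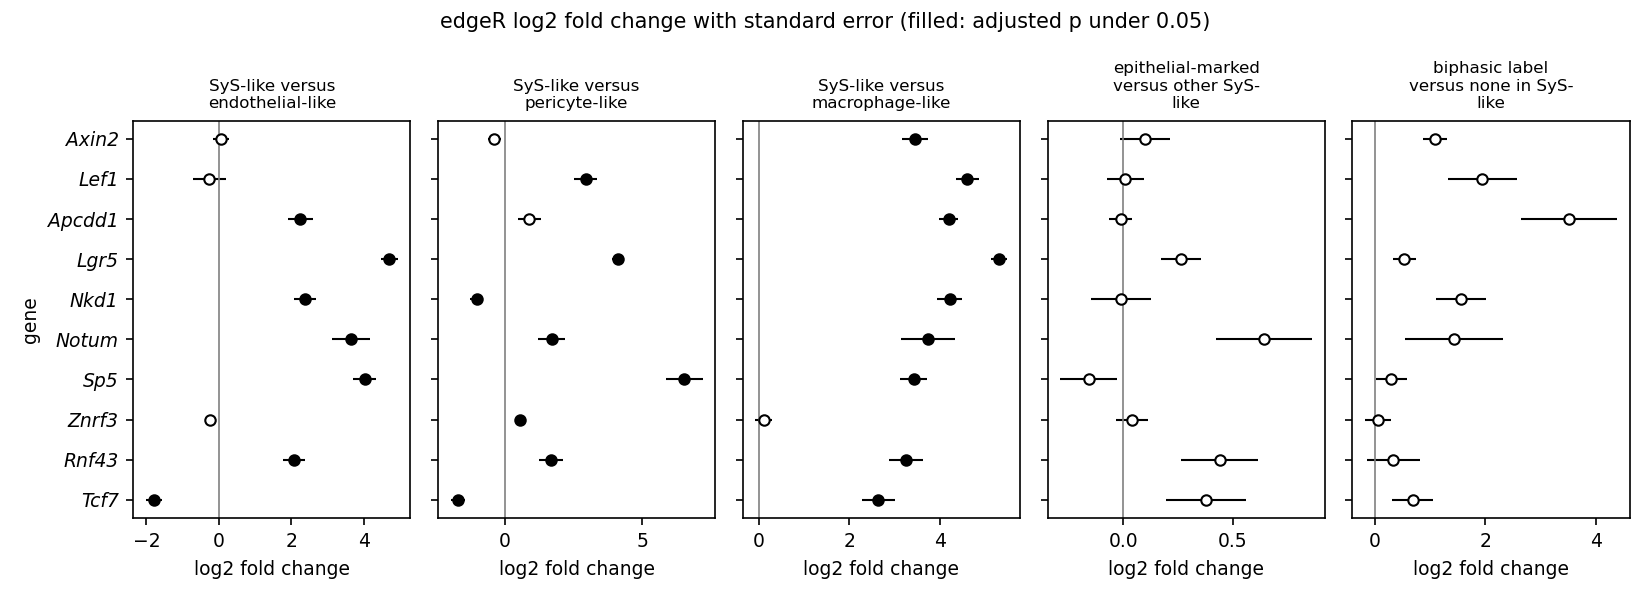
edgeR log2 fold change (horizontal axis) with its standard error for each gene in the 5 comparisons, 1 panel each, with filled symbols for adjusted p under 0.05. *Lgr5* is filled and above 4 in all 3 class comparisons, and no symbol is filled for the epithelial-marked cells or the biphasic label.

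SyS-like cells with a UMI of the epithelial genes *Cdh1*, *Esrp1*, *Grhl2*, *Cldn4* or *Cldn7* after thinning to 4000 UMIs were called epithelial-marked, to ask whether the Wnt targets differ between SyS states. This marked 2128 of 24554 cells (8.67%, exact interval 8.32 to 9.03%), and 18 of 2762 macrophage-like cells (0.652%, 0.387 to 1.03%). Unthinned, the shares were 19.6% and 1.13%, at median depths of 9808 and 5329 UMIs per cell. The mark is a UMI and not the identity of a cell, since it was also found in 5.28% of cells in MP and 2.09% in PD+MP, where the label names no biphasic tissue, beside 11.4% and 9.02% in the BP tumours and 15.4% in MP+BP. Thinning left out 2452 SyS-like and 1119 macrophage-like cells. None of the 10 genes passed the test between marked and other cells, where 0.716% of all such genes were called higher and 0.434% lower. Before adjustment, 852 higher and 1098 lower of all 14921 genes tested had a p under 0.05 in edgeR, and 557 and 441 in DESeq2. Of the 10 genes, 4 had such a p in edgeR and 2 in DESeq2, which also called none of them after adjustment. The largest differences were *Notum* (0.64 ± 0.22, adjusted p = 0.154, higher in 5 of 5 tumours) and *Rnf43* (0.44 ± 0.18, adjusted p = 0.26). *Lgr5* was at 0.27 ± 0.09 (adjusted p = 0.161), higher in 4 of 5 tumours, and its call turned on the tumours taken, since it passed without MP (0.37, adjusted p = 0.0200) or without MP+BP (0.36, adjusted p = 0.00902). *Tcf7* gave 0.38 ± 0.18 (adjusted p = 0.38), but the sign turned with doublets kept (-0.17), with 2 marker UMIs (-0.77) and at 2000 UMIs (-0.50). *Axin2* gave 0.10 ± 0.11 (adjusted p = 0.815), with a mean of 32.9 CPM in marked and 28.7 CPM in other cells. *Lef1*, *Apcdd1* and *Nkd1* were at 0.0079, -0.012 and -0.011, and *Sp5* was at -0.16 ± 0.13.

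To ask whether histology goes with the levels, SyS-like sums of the 3 BP-labelled tumours (BP and MP+BP) were set against those of MP and PD+MP. No gene of 18126 reached the threshold, so percent called was 0%, and none of the 10 did. Over all 20729 genes tested, edgeR gave 1164 higher and 818 lower genes before adjustment (p under 0.05), and DESeq2 called 456 and 100. Of the 10 genes, 5 had an unadjusted p under 0.05. *Axin2*, *Lef1*, *Apcdd1*, *Lgr5*, *Nkd1* and *Notum* did not overlap between the groups, with every BP-labelled tumour higher (6 of 10, against 15.4% of all such genes higher without overlap and 11% lower). *Axin2* gave a log2 difference of 1.08 ± 0.21 (adjusted p = 0.451, edgeR), *Apcdd1* 3.51 ± 0.87 (adjusted p = 0.472), *Lef1* 1.94 ± 0.62 (adjusted p = 0.477) and *Nkd1* 1.56 ± 0.46 (adjusted p = 0.473). *Notum* gave 1.43 ± 0.89 (adjusted p = 0.615) and *Lgr5* 0.54 ± 0.21 (adjusted p = 0.519). The groups overlapped for *Tcf7* (0.68 ± 0.38), *Rnf43* (0.34 ± 0.48), *Sp5* (0.30 ± 0.28) and *Znrf3* (0.06 ± 0.23). The median over the 10 genes was 0.88, and over all genes tested 0.01.

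DESeq2 called *Axin2* (1.06, adjusted p = 0.00486) and *Apcdd1* (3.49, adjusted p = 0.000342) for the biphasic label. Without MP, PD+MP was the single tumour on its side, and the edgeR log2 difference was 3.20 for *Lef1* and 3.76 for *Notum*. None of the 10 genes was called for the label under the other alternatives that kept more than 1 tumour on each side. Beside the *Axin2* and *Apcdd1* levels, the summed CPM of 6 fibroblast markers in the same SyS-like cells was 252 to 502 in the BP-labelled tumours and 137 to 191 in the others. The sum of 4 erythroid markers was 35.8 to 81.5 against 11.5 to 24.2, and that of 4 keratinocyte markers 26.8 to 31.4 against 6.71 to 17.8. The sum of the 11 SyS markers also did not overlap, at 3198 to 4233 against 3049 to 3174. Sums of the remaining marker lists overlapped, among them macrophage, endothelial and pericyte markers. The part of any of these sums in the differences was not tested.

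Within SyS-like cells the levels of several genes differed by cluster. The cluster led by *Mgp*, *Sst*, *Col1a1*, *Cartpt*, *Penk* and *Col3a1* held 2288 cells from all 5 tumours, of which 44.8% came from MP+BP. *Axin2* was higher in it than in the other SyS-like cells of each tumour, at 60.0 against 36.6, 82.7 against 25.9, 49.5 against 14.5, 63.1 against 37.4 and 50.9 against 16.9 CPM. *Lgr5* was also higher in each, at 1055 against 354, 751 against 409, 470 against 313, 676 against 419 and 388 against 242 CPM. *Apcdd1* went the other way, at 482 against 988, 761 against 982, 41.1 against 61.4, 110 against 162 and 43.9 against 58.3 CPM. *Lef1* was higher in 4 of 5, with MP+BP the exception at 278 against 362 CPM. *Tcf7* was also higher in 4 of 5, *Nkd1*, *Notum* and *Rnf43* in 2 and *Sp5* in 1. *Znrf3* was higher in 0 of 5, at 0.55 to 0.98 of the level in the other SyS-like cells. Of the fibroblast markers, 2 of 6 passed the level criteria used for naming this cluster, beside 6 of 11 SyS markers. Its median depth was 6430.5 UMIs per cell. The part of either in these levels was not tested. As the cells were clustered by their expression, this is a description and no test was made.

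*Apcdd1* instead was highest in a cluster led by *Dcc*, *Kcnip4* and *Ecrg4*, at 1439 CPM in BP replicate 1 and 1281 CPM in BP replicate 2, and it was itself among the 10 leading genes of that cluster and of the largest BP cluster (4247 cells). *Lgr5* was lowest in the same *Dcc* cluster, at 149.7 and 148 CPM. *Axin2* and *Apcdd1*, both feedback genes, thus had their highest levels in different clusters of the BP tumours. In MP+BP, *Lef1* peaked at 681 CPM in a cluster led by *Npnt*, *Cpvl* and *Trpm3*, of which 99.4% of the cells came from that tumour.

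**Figure D4:**
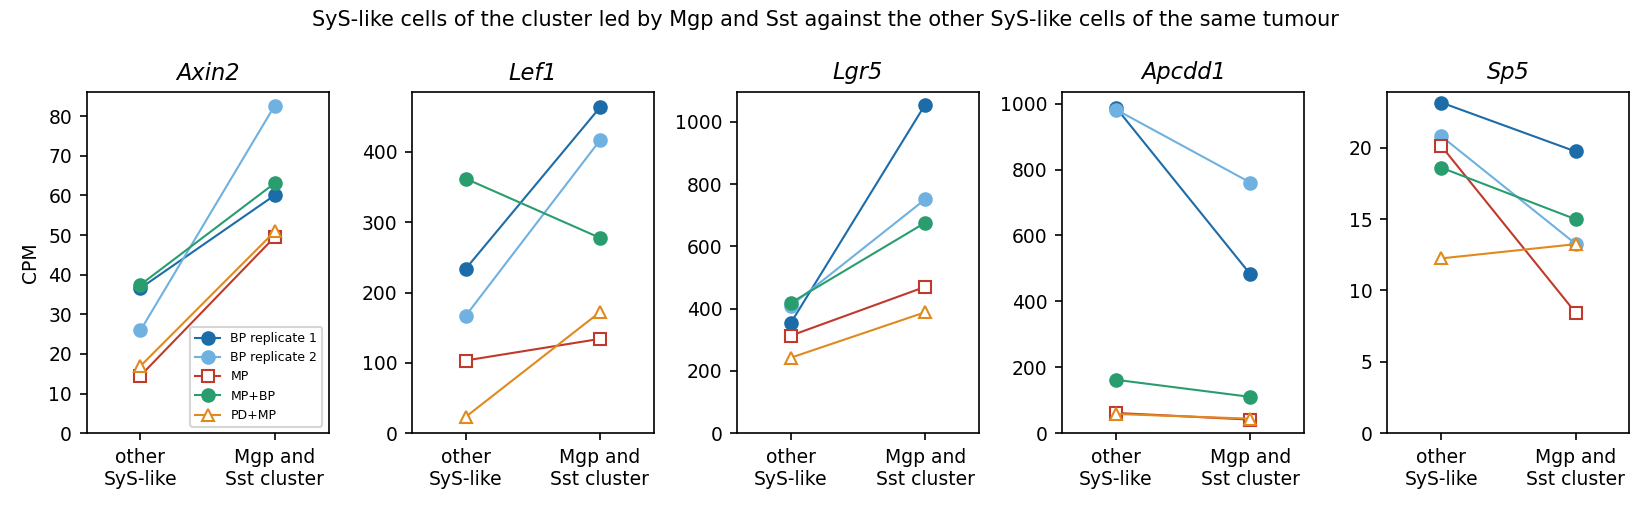
CPM of *Axin2*, *Lef1*, *Lgr5*, *Apcdd1* and *Sp5* in the SyS-like cells of the cluster led by *Mgp* and *Sst* and in the other SyS-like cells, with a line joining the 2 values of each tumour. *Axin2* and *Lgr5* are higher in the cluster in all 5 tumours, *Apcdd1* is lower in all 5 and *Sp5* is lower in 4.

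Co-detection asked whether the genes were found in the same SyS-like cells. In 24554 cells thinned to 4000 UMIs, 1.92 of the 10 genes had a UMI in the mean cell, 12.5% of cells had none and 30.6% had 3 or more. That last share was 50.8 and 42.7% for the BP tumours, 35.5% for MP+BP, 13.3% for MP and 9.26% for PD+MP. Of 45 gene pairs, 36 were found together more often than the product of their shares within each tumour gives, but the median ratio of observed to expected cells was only 1.04, and the range was 0.906 to 1.32. For 8 pairs the interval lay above 1, and for none below it. Pairs of other genes were not computed, so no share over all pairs stands beside these counts. The intervals of the 45 pairs were not adjusted for their number. *Axin2* and *Lef1* were found together in 1174 cells against 1075 expected (1.09, 1.03 to 1.16) and *Axin2* and *Lgr5* in 1277 against 1180 (1.08, 1.02 to 1.14), above 1 in 5 of 5 tumours for both. With the expectation taken within clusters, the intervals of both pairs reached below 1 (1.05, 0.990 to 1.11, and 1.05, 0.989 to 1.10). *Lef1* and *Lgr5* were together in 4547 against 4294 (1.06), also in 5 of 5.

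*Axin2* and *Nkd1*, both feedback inhibitors, were together in 283 cells against 248 (1.14, 1.01 to 1.28), with 32 against 16.1 in PD+MP and 5 against 9.10 in MP. Within clusters, where cells of 1 cluster set the expectation, the median ratio was 1.03 and 3 pairs had an interval above 1, namely *Axin2* and *Nkd1* (1.17, 1.04 to 1.32), *Lef1* and *Lgr5* (1.04, 1.01 to 1.07) and *Znrf3* and *Tcf7* (1.15, 1.00 to 1.31). Cells with a UMI of *Axin2* had more *Lef1* than those without in all 5 tumours, by 0.24, 0.27, 0.20, 0.20 and 0.71 on the log2 scale of summed CPM. *Apcdd1*, *Lgr5*, *Nkd1*, *Sp5* and *Znrf3* were higher in *Axin2*-positive cells in 4 of 5 tumours, *Notum* in 2, *Rnf43* in 1 and *Tcf7* in 0. The cells of a tumour share a library, and the ratios are given without a p.

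**Figure D5:**
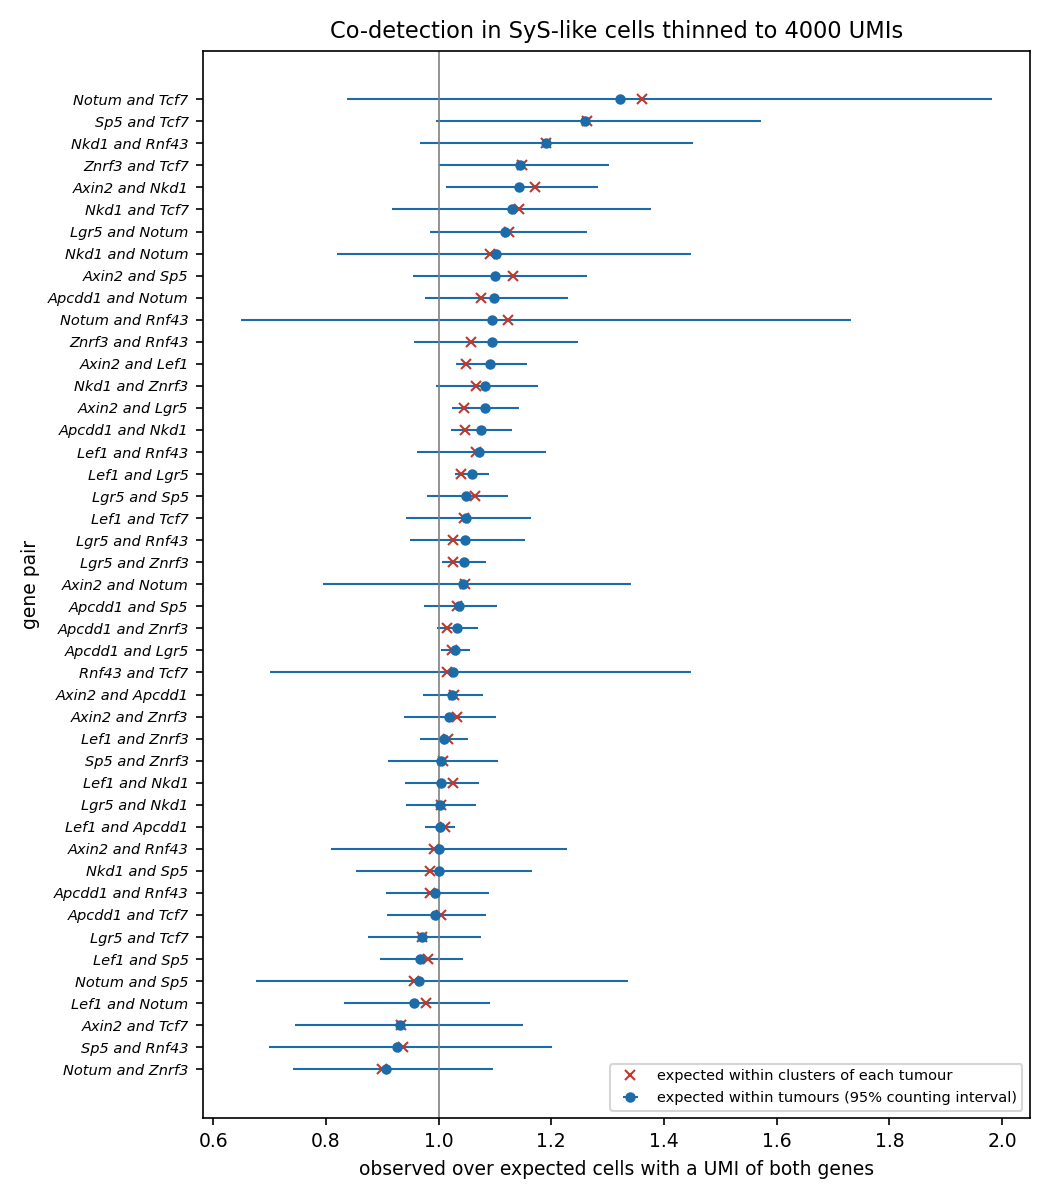
Cells with a UMI of both genes, observed over expected, for the 45 pairs of the 10 genes in SyS-like cells thinned to 4000 UMIs, summed over tumours. Circles with 95% counting intervals take the expectation within tumours and crosses within clusters, and the circles run from 0.906 to 1.32 around a median of 1.04.

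The genes whose level was most like that of *Axin2* across thinned SyS-like cells, by Pearson's r averaged over the 5 tumours among 11586 genes, were *Cped1* (0.0876), *Col1a1* (0.0873), *Col3a1* (0.0854), *Tcf4* (0.0794), *Prrx1* (0.0764), *Col23a1* (0.0708), *Prkg1* (0.0635) and *Col5a2* (0.0624). *Col1a1* and *Col3a1* are fibrillar collagen genes that also lead the cluster named above. Among members, *Lef1* ranked 57th, *Lgr5* 205th, *Apcdd1* 227th and *Nkd1* 444th for likeness to *Axin2*. The other ranked members lay lower, with *Sp5* 1712th, *Znrf3* 5174th, *Rnf43* 5988th and *Tcf7* 8902nd. *Lef1* was most like *Tcf4* (0.145), which despite its name encodes a basic helix-loop-helix factor outside the TCF/LEF family, *Zswim6* (0.143) and *Hivep2* (0.142). *Lgr5* was most like *A930009A15Rik* (0.246), which overlaps it on the opposite strand, and *Neat1* (0.227), and whether reads were assigned by strand was not stated. *Nkd1* had *Apcdd1* (0.051) second after *Adgrv1* (0.0551), the only other member among these leading genes. *Apcdd1* was most like the collagen gene *Col4a5* (0.132), and *Znrf3* most like *Auts2* (0.163). *Tcf7* was most like *Pecam1* (0.0485), an endothelial marker. The 7 endothelial markers summed to 55.1 to 197 CPM in the SyS-like cells of the 5 tumours, and their part in the *Tcf7* values was not tested. *Notum* was detected in too few PD+MP cells to be ranked. These correlations are weak, and the cells of a tumour share a library.

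Overlaps with other genes touch several members. The opposite-strand genes *Gm43352* at *Lef1* and *Myadml2os* at *Notum* had 1759 and 864 UMIs in SyS-like cells, and *A930009A15Rik* at *Lgr5* had 3209. At *Tcf7*, *A630014C17Rik* had 644 UMIs, and at *Axin2*, *Gm11670* had 40. On *Rnf43* the same-strand *1110028F11Rik* had 29. Without a stated use of strand, the levels of *Lef1*, *Lgr5*, *Notum* and *Tcf7* are uncertain to the extent that such reads were shared.

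Genes of the wider pathway also differed by class. Of 81 other Wnt genes in 6 lists, 49 of 76 tested were higher and 13 lower in SyS-like than endothelial-like cells, 43 and 9 of 76 against pericyte-like cells, and 56 and 4 of 74 against macrophage-like cells. Among all such genes the shares were 30.9% higher and 18.4% lower, 22.8% and 11.5%, and 37.2% and 22.4%. The median log2 fold changes of the 10 target genes were 2.17, 1.30 and 3.60, where those of all genes tested were 0.18, 0.21 and 0.24. The pericyte-like median of the 10 genes was 0.70 with doublets kept. Ligands and their secretion genes had 17 higher and 1 lower of 21 tested against endothelial-like cells, led by *Wnt5a* (5.17 ± 0.27, adjusted p = 1.91e-07), a ligand often acting outside the beta-catenin route, and *Wnt6* (5.15 ± 0.38, adjusted p = 1.90e-06, edgeR). Of receptors, 10 of 15 were higher, led by *Fzd1* (4.90 ± 0.22) and the R-spondin receptor *Lgr6* (4.83 ± 0.24), and 4 were lower, led by *Fzd6* (-4.23 ± 0.17). Of the intracellular cascade, 4 of 13 were higher and 4 lower, a number of higher genes near the 30.9% of all genes, with *Amer1* at 2.51 and *Ctnnb1*, the beta-catenin gene, at -1.05. Nuclear partners of beta-catenin had 5 of 8 higher, led by *Pygo1* (3.68), and 1 lower, *Ctnnbip1* (-1.57), which encodes an inhibitor of beta-catenin binding to TCF.

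Against pericyte-like cells, the ligand list had 15 higher and 1 lower of 21, led by *Wnt6* (3.73 ± 0.31, adjusted p = 5.90e-07, edgeR), and the R-spondin gene *Rspo3*, whose product binds LGR receptors, gave 4.54. Receptors had 11 higher and 2 lower of 15, nuclear partners 5 higher and 0 lower of 8, and the cascade 6 higher and 2 lower of 13. Secreted antagonists had 3 higher and 1 lower of 9, where 22.8% of all such genes were higher and 11.5% lower. Against macrophage-like cells, ligands had 18 and 0 of 21, receptors 13 and 1 of 15, and nuclear partners 7 and 0 of 8. Antagonists had 6 and 0 of 7. The cascade had 5 and 1 of 13, a number of higher genes near the 37.2% of all such genes. *Tcf7l1*, the TCF gene most often described as a repressor, gave 4.29 against macrophage-like cells and *Rspo3* 4.60. No gene of the 6 lists was called for the biphasic label, where 25 of 81 listed did not overlap with the BP-labelled tumours higher and 7 with them lower (15.4% and 11% among all such genes).

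Secreted antagonists had 6 of 9 higher and 1 lower against endothelial-like cells, with *Wif1* at 4.78 and *Dkk2* at -5.76. Other reported targets were split in direction. Of 10, 7 were higher and 2 lower against endothelial-like cells, 3 and 3 against pericyte-like cells and 7 and 2 against macrophage-like cells. *Sox9* was higher in each (4.44, 2.84 and 4.49), while *Myc* was lower against endothelial-like (-1.70) and pericyte-like cells (-2.61), and *Cd44* was lower against pericyte-like (-4.24) and macrophage-like cells (-5.82). Between epithelial-marked and other SyS-like cells, *Wnt16* (0.45 ± 0.11, adjusted p = 0.0316) was higher and the antagonist *Wif1* (-0.52 ± 0.10, adjusted p = 0.00785, edgeR) was lower, and no other gene of these lists was called.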

How the data were processed

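Single cells of 5 SyS were profiled with Chromium 3′ v3.1 libraries. The matrices were made by the authors with Cell Ranger 7.2.0 per the file headers, on build mm10 per the submitters' processing notes. The deposited values are UMI counts per gene and cell in filtered matrices, neither normalized nor corrected for free RNA. Whether intronic reads were counted and strand used, and the annotation release, were not given in the sources used here. Cells with at least 750 genes and at most 25% mitochondrial UMIs were kept, as in the study's methods. The automatic threshold of Scrublet (scanpy 1.11.5) marked only 4 cells in BP replicate 1, so each tumour's top-scoring cells, at an expected share of 0.8% per 1000 cells, were removed instead (2957 in all). Clusters came from 3000 variable genes by Pearson residuals (overdispersion 100, genes in at least 50 cells), 30 principal components, 20 shared nearest neighbours and Leiden resolution 1 (leidenalg 0.10.2). The 10 genes, the Wnt lists and the epithelial genes were no features. Clusters were called X-like where at least 3 listed markers passed and no other class had more markers among the 10 leading genes. To pass, a marker needed a CPM at least 3 times the lower quartile over clusters, with 1 CPM added to both. It also needed at least 25% of the level of the highest cluster and a UMI in at least 5% of the cells. Of 5 unnamed clusters (3869 cells), 4 (3715 cells) had SyS markers but were too shallow to be named, with a median depth of 26.8 to 30.5% of that of their own tumours and no SyS marker among their 10 leading genes; in 2 of these, markers of a different class were among those 10. The remaining cluster (154 cells) had endothelial and pericyte markers, and the rule that a further class with 3 or more markers leaves a cluster unnamed was set after it had been seen. Names were rebuilt here and may differ from the study's.

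Sums of UMI counts for each class of each tumour were tested by edgeR 4.0.16 (R 4.3.3; TMM, filterByExpr, quasi-likelihood, two-sided, Benjamini-Hochberg adjusted p under 0.05 over all genes tested). The tumour was a block in the comparisons between classes, and the biphasic label had none. DESeq2 1.42.0, library totals in place of TMM, no low-count filter, no tumour block, doublets kept, a minimum of 1500 genes and each tumour left out were the alternatives, with other thinning and marking for the epithelial-marked cells. Intervals are exact Poisson and binomial (scipy 1.17.1) and the floor is 3 counts. The scripts were tested on simulated data. BP replicates differed beyond counting noise (median chi-square per gene 4.83 over 22018 genes, against 0.455) and were counted as 2 samples. This shows only that they were not 1 library deposited again, and the count of independent tumours may be lower. The members and lists were chosen with earlier results of these data known. Genes named were the members, up to 3 called genes per list and direction, and the genes most correlated with a member. Human fusion transcripts and the promoters of Apcdd1, Lgr5, Notum and Znrf3 were not analysed here.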

Additional observations from a re-analysis of the deposited data

How the results depend on the processing

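Of the values for single genes, 507 kept their direction and side of the threshold, 13 gained a call, 9 lost one (all against pericyte-like cells) and 31 changed sign, none of which was called as reported. The cause of each change was not tested. Against pericyte-like cells, members called higher ran from 4 to 7 when 1 tumour was left out, and without the tumour block 1 was called lower in place of 2, since *Nkd1* gave -0.85 (adjusted p = 0.138, edgeR), and *Notum* (1.57, adjusted p = 0.161) was not called higher. *Apcdd1* was called higher there with library totals (1.14, adjusted p = 0.0368). With doublets kept, pericyte-like means were 175 CPM for *Apcdd1*, 59.8 for *Lef1*, 89.8 for *Lgr5*, 3.63 for *Rnf43* and 3.85 for *Sp5*. With 1 tumour left out, *Axin2* against endothelial-like cells ran from -0.067 (without MP+BP) to 0.29, and was also below 0 without BP replicate 1 (-0.027). *Lef1* there ran from -0.60 to 0.27 (without PD+MP), and *Znrf3* against macrophage-like cells from -0.053 (without PD+MP) to 0.25. For the biphasic label, DESeq2 called 2 members. Leaving out MP or PD+MP left 1 tumour on that side, so only effect sizes are given when 1 tumour was left out. There *Rnf43* ran from -0.28 (without MP) to 1.31, *Sp5* from -0.0084 (without PD+MP) to 0.63 and *Znrf3* from -0.14 (without BP replicate 1) to 0.16, with -0.020 without PD+MP. Pairs with a co-detection interval above 1 numbered 3 within clusters and 5 to 8 with 1 tumour left out, the lowest without PD+MP, and 9 at 2000 UMIs.

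For epithelial-marked cells, 1 member (*Lgr5*) was called with no low-count filter (0.19, adjusted p = 0.0245), with at least 2 marker UMIs (0.46, adjusted p = 0.0422) and at 2000 UMIs (0.32, adjusted p = 0.00991), and 0 to 1 with 1 tumour left out. Signs changed for *Apcdd1* (0.033 with 2 marker UMIs, 0.026 with library totals, 0.037 with no block), *Nkd1* (0.13 by DESeq2, 0.024 with library totals, 0.18 with no block), *Lef1* (-0.056 with no filter, -0.012 with doublets kept, -0.18 at 2000 UMIs), *Znrf3* (-0.031 with no filter, -0.066 with doublets kept, -0.0055 with 2 marker UMIs), *Tcf7* (-0.17 with doublets kept, -0.77 with 2 marker UMIs, -0.50 at 2000 UMIs), *Axin2* (-0.0095 with doublets kept) and *Sp5* (0.042 at 2000 UMIs). With 1 tumour left out, *Apcdd1* ran from -0.053 to 0.0069, *Nkd1* from -0.098 to 0.11, *Lef1* from -0.047 to 0.13 and *Znrf3* from -0.0034 to 0.091.

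Over all genes, library totals in place of TMM called 10283 higher and 3113 lower against macrophage-like cells (6650 and 4887 with TMM), 5919 and 2313 against pericyte-like cells (4089 and 2819) and 258 and 31 for epithelial-marked cells (197 and 108), and moved the all-gene median from 0.21 to 0.44 against pericyte-like and 0.18 to 0.39 against endothelial-like cells. Epithelial-marked calls were 85 and 14 by DESeq2, 4 and 0 with no block, 284 and 775 with no filter, 113 and 47 at 2000 UMIs, 83 and 25 without BP replicate 1, 113 and 38 without BP replicate 2 and 268 and 247 without PD+MP. For the biphasic label without MP, 1 tumour was left on that side, so counts of called genes are not given. No paired analysis was possible because the histology groups are made of different tumours, whose replicate numbers only name them; the class comparisons were blocked by tumour. With 2 tumours on 1 side and low counts of *Notum*, *Rnf43*, *Sp5* and *Tcf7*, differences of those genes may have been missed.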

Other observations

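*Lgr5* stood at 1403 CPM in the neutrophil-like cells of MP, far above its level in any other class. All 70 UMIs lay in 1 of 23 cells, which held 7206 UMIs in all, so the value describes a single cell.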
